A study of Homo sapiens with 2 samples.

Results

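Genes of protein folding in the endoplasmic reticulum (ER), of the unfolded protein response and of ER-associated degradation (ERAD) were followed in Hep3B cells given a plant extract. They were chosen by symbol, from a list of 45 names covering ER chaperones, disulfide isomerases, stress sensors, the Sec61 translocon and ERAD factors. The count files hold 44 of these names among 43424 symbols. The remaining one, VIMP, is an older name of SELENOS, which is present. A minimum of 30 counts summed over both libraries was met by 40 members, and ratios are given for these. The members not meeting it were TXNDC5, ATF6B, EDEM2 and DERL3.

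Hep3B is an established human hepatoma line, labelled wild type and liver epithelial. Control cells received DMSO, the solvent, and treated cells received Glehnia littoralis extract (GLE). There is 1 library in each group, so differences have no replicate check and no test between conditions was made. The sources used here state neither dose nor duration for the sequenced cells. The libraries were made with a Lexogen QuantSeq kit, whose reads come from the 3′ end of polyadenylated RNA, and total counts were 5618328 for the control and 3636351 after GLE. All 11 hepatocyte markers examined had counts, with a summed level of 15779.5 CPM (read counts scaled to library size) in the control and 12742.5 CPM after GLE. Of 6 endothelial markers 5 were at 0 in both libraries, and PECAM1 had 36 control counts and 1 GLE count. The 8 fibroblast markers summed to 41 and 75 counts, with COL1A1 at 4 and 29 and PDGFRA at 13 and 0, so some markers of other cell types differed between the libraries at low counts. Among 8 leukocyte markers, CD3E and MS4A1 were at 0, CD79A had 0 and 1 counts, PTPRC 1 and 3 and TYROBP 2 and 6. The others had more, with LYZ at 2711 and 1540, CD68 at 117 and 96 and CD14 at 37 and 9. The part of these markers in the values below was not tested. In bulk RNA, fewer cells that express a gene and less of its RNA per cell cannot be told apart.

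Secreted and membrane proteins enter the ER through the Sec61 channel and are folded there by chaperones of the HSP70 and HSP90 type, by lectin chaperones that read sugar chains and by enzymes that form disulfide bonds. When unfolded proteins accumulate, the sensors ATF6, IRE1 (gene ERN1) and PERK are released from the chaperone BiP. ATF6 is cut to a free transcription factor that induces chaperones. IRE1 splices the message of XBP1, whose spliced form induces translocon and degradation genes. PERK phosphorylates eIF2 and favours translation of ATF4. Proteins that fail to fold are returned to the cytosol by ERAD and degraded by the proteasome. Hepatocytes secrete most plasma proteins and carry a large ER. The splicing of XBP1 and the cutting of ATF6 cannot be read from counts per gene.

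Promoters of the members hold short elements known to bind these factors, and 5 of them are shown because their genes lay at different ratios in the libraries. RefSeq promoter sequences (GRCh38.p14, 250 bases before to 50 bases after the start site) matched 40 of the 44 members. The 250 bases before the start site are printed 5′ to 3′ on the strand of the gene, with matches to the motifs in capitals. The 4 motifs were searched on both strands: the ER stress response element ERSE (CCAAT, 9 free bases, then CCACG), ERSE-II (ATTGG, 1 free base, then CCACG), the core of the unfolded protein response element (TGACGTG) and an ATF4-C/EBP element (TGATGNAA). The regions are chr16:56931892-56932141 on the plus strand for HERPUD1, chr9:125241344-125241593 on the minus strand for HSPA5 and chr12:103930160-103930409 on the plus strand for HSP90B1. The plus-strand regions chr22:21642052-21642301 and chr9:99222032-99222281 belong to SDF2L1 and SEC61B.
HERPUD1: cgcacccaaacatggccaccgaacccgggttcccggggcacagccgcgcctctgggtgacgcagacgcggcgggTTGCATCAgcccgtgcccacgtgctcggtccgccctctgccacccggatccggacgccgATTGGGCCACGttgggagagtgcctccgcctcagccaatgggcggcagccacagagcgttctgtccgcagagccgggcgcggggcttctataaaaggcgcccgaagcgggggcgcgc
HSPA5: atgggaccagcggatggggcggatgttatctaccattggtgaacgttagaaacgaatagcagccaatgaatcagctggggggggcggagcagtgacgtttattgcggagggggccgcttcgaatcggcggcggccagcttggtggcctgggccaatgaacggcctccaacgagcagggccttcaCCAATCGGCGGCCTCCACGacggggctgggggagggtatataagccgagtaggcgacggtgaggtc
HSP90B1: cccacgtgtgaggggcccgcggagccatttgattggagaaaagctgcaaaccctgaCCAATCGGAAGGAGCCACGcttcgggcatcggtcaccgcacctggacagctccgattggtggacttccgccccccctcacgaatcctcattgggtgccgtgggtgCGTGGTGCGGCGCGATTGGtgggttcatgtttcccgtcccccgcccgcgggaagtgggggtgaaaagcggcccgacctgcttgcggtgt
SDF2L1: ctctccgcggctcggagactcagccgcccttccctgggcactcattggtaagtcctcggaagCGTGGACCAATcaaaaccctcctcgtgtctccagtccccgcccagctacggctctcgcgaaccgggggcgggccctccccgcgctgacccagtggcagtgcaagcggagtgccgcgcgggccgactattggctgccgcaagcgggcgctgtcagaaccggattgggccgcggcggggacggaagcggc
SEC61B: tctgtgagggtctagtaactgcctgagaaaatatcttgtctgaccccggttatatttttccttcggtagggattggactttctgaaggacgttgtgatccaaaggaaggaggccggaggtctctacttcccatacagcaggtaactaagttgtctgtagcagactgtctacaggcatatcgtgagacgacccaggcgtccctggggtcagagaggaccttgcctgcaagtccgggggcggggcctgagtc
In the HERPUD1 promoter the first run of capitals is the ATF4-C/EBP element on the opposite strand and the second is ERSE-II. The other capitals mark 1 ERSE in HSPA5, 2 in HSP90B1 and 1 ERSE-II in SDF2L1. None of the 4 motifs was found in the SEC61B window.

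ERSE was found in 7 of the 40 member promoters (17.5%) and in 22 of all 27305 promoters of the same length (0.0806%). ERSE-II was found in 3 members (7.5%) and in 15 of all promoters (0.0549%). The members were chosen as genes of this response, so these shares only describe them. Read on the strand of the motif, with its fixed letters in capitals, the ERSE matches were as follows.
CALR, 225 to 207 bases upstream: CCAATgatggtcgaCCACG
CANX, 151 to 133 bases upstream: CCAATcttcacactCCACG
CRELD2, 80 to 62 bases upstream: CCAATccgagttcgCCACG
ERO1B, 243 to 225 bases upstream: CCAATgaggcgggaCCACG
HSP90B1, 194 to 176 bases upstream: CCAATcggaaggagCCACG
HSP90B1, 89 to 71 bases upstream: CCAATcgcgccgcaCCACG
HSPA5, 66 to 48 bases upstream: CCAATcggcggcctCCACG
XBP1, 52 to 34 bases upstream: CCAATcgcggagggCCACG
The spacer between the fixed ends differed at every site. HSP90B1 carried a match on each strand.

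The ERSE-II matches, read the same way, differed only at the free base.
HERPUD1, 117 to 107 bases upstream: ATTGGgCCACG
HYOU1, 185 to 175 bases upstream: ATTGGaCCACG
HYOU1, 79 to 69 bases upstream: ATTGGaCCACG
SDF2L1, 188 to 178 bases upstream: ATTGGtCCACG
HYOU1 carried 2 identical matches. The core TGACGTG was found in 4 members (HYOU1, SEC62, TXNDC11 and VCP) and in 2% of all promoters, and in HYOU1 it overlapped the distal ERSE-II. The ATF4-C/EBP element was found in HERPUD1 alone among the members and in 3.67% of all promoters.

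Higher values in the GLE library were found for part of the response. Of the 40 members with enough counts, 7 (17.5%) were at least 2-fold higher, beside 9.54% of all 11068 genes with enough counts. These were HERPUD1, ERO1B, SEC61G, HSPA13, TXNDC11, SEC61B and CRELD2. No member was at least 2-fold lower, beside 10.5% of all genes. At 1.5-fold, 11 members (27.5%) were higher, beside 19.3%, and 2 (5%) were lower, beside 21.9%. The 95% counting interval was above 1 in 17 members (42.5%, beside 27.7% of all genes) and below 1 in 12 (30%, beside 30.1%). The whole interval lay beyond 2-fold for HERPUD1 and SEC61G, 2 members, beside 3.82% of all genes on the higher side, and for 0 members beside 2.86% on the lower side. Members had more counts than most genes, with a median of 671.5 over both libraries against 244. More counts give narrower intervals, which leave out 1 at smaller ratios. The interval shares here and below are not matched for counts, so they are not like for like with those of all genes. Over genes with at least 100 counts, 6 of 38 members (15.8%) were at least 2-fold higher, beside 7.31% of all such genes, and 0 were lower, beside 6.91%. The median log2 ratio of the members was 0.15, and that of all genes was -0.04. All 44 members together made up 0.587% of the control library (exact 95% binomial interval 0.581 to 0.593) and 0.608% of the GLE library (0.600 to 0.616). These shares are weighted to abundant genes and do not show a rise of the whole set. HSPA5 alone held 3012 of the 32987 member counts in the control and 2694 of 22122 after GLE.

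**Figure D1:**
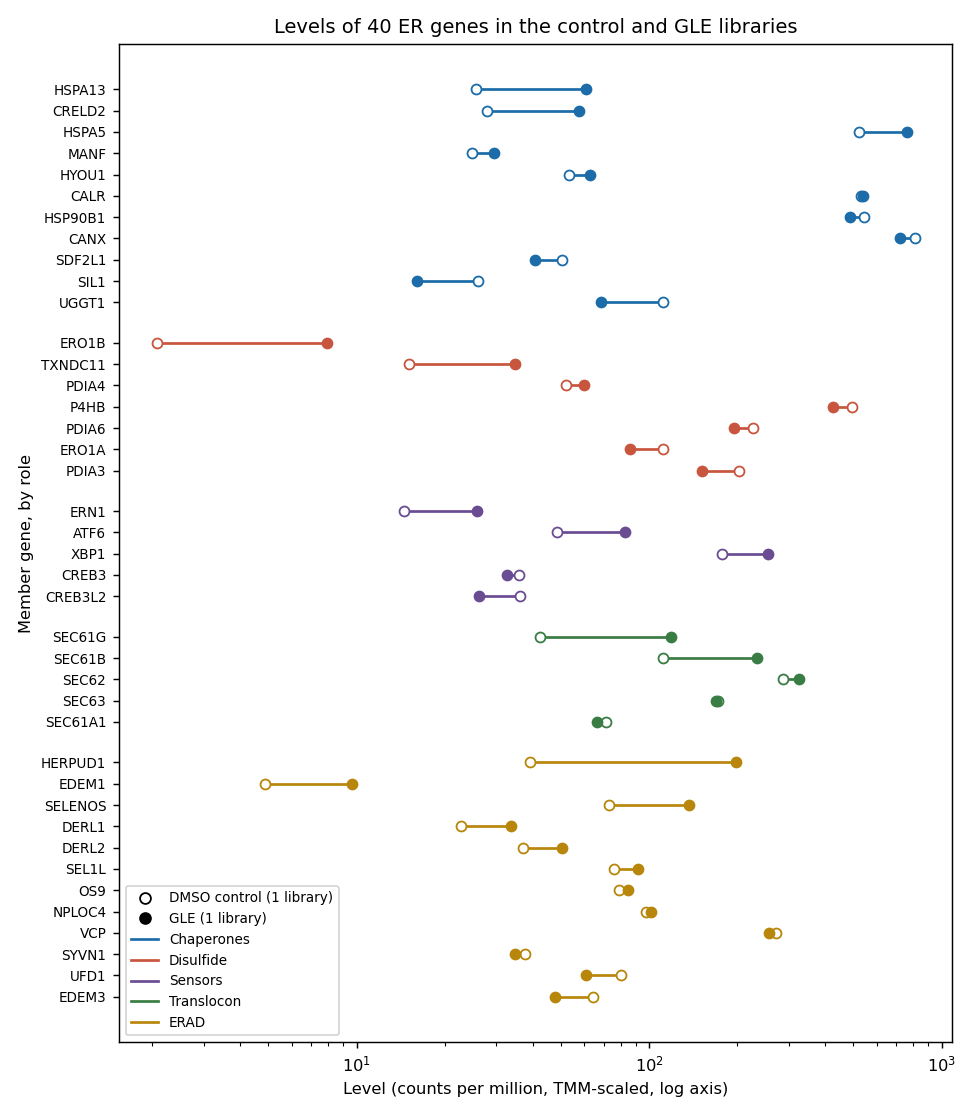
Level of each member with at least 30 counts (CPM, log axis) in the DMSO control (open) and GLE (filled) library, grouped by role and ordered by ratio within each group. HERPUD1 has the longest line, from 39.3 to 198 CPM, and the abundant chaperones CALR, HSP90B1 and CANX have short ones.

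HERPUD1 stood farthest from the control. This ER membrane protein holds ERAD complexes together (chromosome 16, 56932142 to 56944864, GRCh38.p14). Counts were 227 in the control and 700 after GLE, or 39.3 and 198 CPM, a ratio of 5.04 (95% counting interval 4.33 to 5.88). Its promoter, printed above, was the one member promoter with both ERSE-II and the ATF4-C/EBP element.

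The chaperones did not lie to one side, with a median log2 ratio of 0.02. Their intervals were above 1 for 3 of 11 (27.3%) and below 1 for 5 (45.5%), beside 27.7% and 30.1% of all genes. HSPA5, which encodes BiP, the main HSP70 of the ER and the keeper of the sensors, had 3012 counts in the control and 2694 after GLE, and pairs of counts below follow that order. Its level was 521 and 762 CPM, a ratio of 1.46 (1.39 to 1.54). HSP90B1, the HSP90 of the ER, had 3131 and 1716 counts, a ratio of 0.896 (0.844 to 0.95). The intervals of this pair, both with ERSE in the promoter, did not overlap. Pseudogene copies could share reads with HSP90B1 and PDIA3, and their own counts were 13 and 8 for HSP90B2P and 28 and 11 for PDIA3P1.

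HSPA13, a microsomal HSP70-like protein, had 148 and 215 counts, a ratio of 2.37 (1.92 to 2.95). HYOU1, the large HSP70 relative that exchanges nucleotide on BiP, had 308 and 223 counts, and the interval of its ratio of 1.18 (0.991 to 1.41) included 1. SIL1, the other nucleotide exchange factor of BiP, had 150 and 57 counts and was lower, at 0.621 (0.449 to 0.848). BiP itself thus lay above 1 and its exchange factor SIL1 below, while the interval of HYOU1 included 1.

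Small secreted or retained ER proteins known to be induced in this response differed among themselves. CRELD2 had 162 and 204 counts, a ratio of 2.06 (1.67 to 2.54). MANF, a secreted factor that binds BiP, had 143 and 104 counts, at 1.19 (0.914 to 1.54). SDF2L1, which works with the BiP co-chaperone DNAJB11, had 291 and 144 counts, at 0.809 (0.658 to 0.991). SDF2L1 lay slightly below 1 and CRELD2 above it, although both promoters hold an element of the ERSE type. With a trend of ratio with transcript GC content removed, SDF2L1 was at 0.986, close to 1, and CRELD2 at 2.33.

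Lectin chaperones bind glycoproteins whose sugars carry a single glucose. CALR, the soluble one, had 3069 and 1907 counts and a ratio of 1.02 (0.958 to 1.08). CANX, the membrane-bound one, had the most counts of all members in the control, 4673 against 2559, and a ratio of 0.895 (0.852 to 0.939). UGGT1, the folding checkpoint that adds glucose back to misfolded glycoproteins, had 644 and 242 counts and was 1.63-fold lower (1.40 to 1.90). UGGT1 and SIL1 were the 2 members at least 1.5-fold lower. With the deeper library thinned to the shallower, their ratios were 0.673 and 0.674, just inside 1.5-fold. As summed counts the chaperones were near the control, at a ratio of 1.05 (1.02 to 1.07). Of these counts, 15731 in the control and 10065 after GLE, HSPA5 held 3012 and 2694.

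Disulfide enzymes were mostly slightly lower, with 4 of 7 intervals below 1 (57.1%, beside 30.1% of all genes) and 2 above (28.6%, beside 27.7%). P4HB, the archetypal protein disulfide isomerase, had 2851 and 1510 counts, a ratio of 0.865 (0.813 to 0.922). With a trend of ratio with transcript GC content removed, the ratio of P4HB was 0.959 and the median log2 ratio of the 7 enzymes moved from -0.21 to -0.06. PDIA3, the isomerase that works with the lectin chaperones, had 1169 and 535 counts, at 0.748 (0.674 to 0.829). PDIA6 had 1314 and 690 counts, at 0.858 (0.781 to 0.942). The ATF6 target PDIA4 had 301 and 212 counts, and the interval of its ratio of 1.15 (0.961 to 1.38) included 1. Of the exonic bases, 25.2% in PDIA6 and 18.9% in PDIA3 are shared with genes on the other strand, whose reads cannot be told apart without the strand setting. TXNDC11, a thioredoxin-domain protein of the ER membrane, had 87 and 123 counts and was higher, at 2.31 (1.74 to 3.08).

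The 2 oxidases that reoxidise the isomerases lay on opposite sides of 1. ERO1A, the widely expressed form that hypoxia can induce, had 645 and 304 counts, a ratio of 0.770 (0.670 to 0.884). ERO1B, known for its role in secretory cells such as the insulin-producing beta cell, had 12 and 28 counts, at 3.81 (1.88 to 8.23). In the GLE library ERO1B was still at 7.92 CPM, against 86.0 CPM for ERO1A. TXNDC5 had 4 control and 0 GLE counts, near the floor of 3 counts (0.519 and 0.848 CPM in the 2 libraries), so no fold is given. In the GENCODE release 29 annotation, 60.6% of the exonic bases of TXNDC5 are shared with the readthrough gene BLOC1S5-TXNDC5, which had 2 and 0 counts. The part of this overlap in the low counts was not tested.

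Sensors and their transcription factors were higher for IRE1, XBP1 and ATF6. ATF6, the membrane-bound factor, had 279 and 293 counts, or 48.3 and 82.9 CPM, a ratio of 1.72 (1.45 to 2.03). ERN1 had 84 and 91 counts, at 1.77 (1.30 to 2.41). XBP1, the transcript that IRE1 splices, had 1025 and 904 counts, at 1.44 (1.32 to 1.58), and its promoter holds an ERSE. All 3 intervals lay above 1, and their point ratios were under 2.

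Relatives of ATF6 did not show that pattern. CREB3, a Golgi-processed factor of the same architecture, had 207 and 116 counts, and the interval of its ratio of 0.916 (0.723 to 1.15) included 1. CREB3L2, which controls secretory transport genes, had 209 and 93 counts and was lower, at 0.727 (0.563 to 0.933). ATF6B had 8 and 9 counts, too few for a ratio.

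Translocon genes were split by subunit. SEC61A1, the pore-forming subunit, had 413 and 235 counts, or 71.5 and 66.5 CPM, a ratio of 0.930 (0.789 to 1.09). SEC61B, a small tail-anchored subunit (chromosome 9, 99222282 to 99230615), had 647 and 828 counts, or 112 and 234 CPM, at 2.09 (1.88 to 2.32). SEC61G, the other small subunit (chromosome 7, 54752253 to 54759211), had 244 and 419 counts, or 42.2 and 118 CPM, at 2.81 (2.39 to 3.30). The intervals of both small subunits lay above that of the pore subunit, within a channel that holds one copy of each. The longest coding transcripts of SEC61B and SEC61G, with 587 and 732 bases, are short beside the median of 3487.5 bases over the members. Over the 40 members, log2 ratio and the logarithm of transcript length had a Pearson r of -0.18 and a Spearman rho of -0.11, across genes of the same libraries. Over 10125 genes with a coding transcript these were -0.03 and -0.04.

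The translocation helpers lay close to the control. SEC62, which serves post-translational import and is also an ER-phagy receptor, had 1655 and 1155 counts, a ratio of 1.14 (1.06 to 1.23). With the GC trend removed, that ratio was 1.02. SEC63, the J-domain partner that brings BiP to the channel, had 994 and 599 counts, at 0.985 (0.888 to 1.09).

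ERAD genes other than HERPUD1 lay on both sides of 1 and within 2-fold. Over all 12 ERAD members with enough counts, 6 intervals (50%) were above 1 and 2 (16.7%) below, beside 27.7% and 30.1% of all genes. The median log2 ratio of the 12 was 0.18. EDEM1, which trims mannose from misfolded glycoproteins, had 28 and 34 counts, just inside 2-fold, at 1.98 (1.17 to 3.40). EDEM3, of the same family, lay the other way, with 371 and 168 counts and a ratio of 0.740 (0.613 to 0.890). EDEM2 had 0 counts in both libraries, which leaves its level under the floor in each. The files also list the readthrough gene MMP24-AS1-EDEM2, with 0 and 2 counts.

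Among the channel and adaptor genes, SELENOS, a selenoprotein that recruits the ATPase VCP to the ER membrane, had 422 and 483 counts, a ratio of 1.87 (1.64 to 2.14). DERL1 had 132 and 119 counts, at 1.47 (1.14 to 1.90), and DERL2 had 214 and 178, at 1.36 (1.11 to 1.67). Both are derlins, membrane proteins of the retrotranslocation channel. DERL3 had 0 counts in both libraries, and 77% of its exonic bases are shared with SMARCB1 on the other strand. Whether that overlap bears on the zero counts was not tested.

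The ubiquitin ligase at the centre of ERAD lay near the control. SYVN1, the ligase HRD1, had 218 and 123 counts, and the interval of its ratio of 0.922 (0.733 to 1.16) included 1. SEL1L, the adaptor that stabilises it, had 440 and 323 counts, at 1.20 (1.04 to 1.39). OS9, the lectin that delivers substrates to it, had 455 and 299 counts, at 1.07 (0.925 to 1.25). HERPUD1, which binds the same ligase, was above all of these, with an interval that overlapped none of theirs.

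Extraction from the membrane depends on VCP and its cofactors. VCP had 1571 and 910 counts, a ratio of 0.947 (0.871 to 1.03), and NPLOC4 had 566 and 360 counts, at 1.04 (0.908 to 1.19). UFD1, which forms a dimer with NPLOC4, had 464 and 216 counts and was lower, at 0.761 (0.644 to 0.896). The intervals of these dimer partners did not overlap.

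Compared by arm as placed here, the IRE1-XBP1 genes lay highest by median. Each gene was placed in 1 arm from textbook knowledge of its regulator or pathway. The IRE1-XBP1 arm held ERN1, XBP1, TXNDC11 and the 5 translocon genes SEC61A1, SEC61B, SEC61G, SEC62 and SEC63, so most of it is the translocon. EDEM1, EDEM3, DERL1 and DERL2, also linked to XBP1, were placed in the ERAD arm. The measured ATF6 genes were HSPA5, HSP90B1, HYOU1, SDF2L1, MANF, CRELD2, CALR, PDIA4, PDIA6 and ATF6. The 8 IRE1-XBP1 genes had a median log2 ratio of 0.68, with 6 intervals above 1 (75%, beside 27.7% of all genes) and 0 below (beside 30.1%). The 10 measured ATF6 genes had a median of 0.22, with 3 intervals above 1 and 3 below (30% each), near the shares over all genes. The 12 ERAD genes had a median of 0.18, with 6 above (50%) and 2 below (16.7%). At least 2-fold higher values were found for 3 IRE1-XBP1 genes (37.5%), SEC61B, SEC61G and TXNDC11. They were also found for CRELD2 in the ATF6 arm (10%) and for HERPUD1 in the ERAD arm (8.33%). The share over all genes was 9.54%, so the shares of the last 2 arms lay near it. The 10 measured members outside the arms had a median of -0.29, with 2 intervals above 1 (20%) and 7 below (70%). As summed counts the ratios were 1.38 (1.33 to 1.44) for IRE1-XBP1, 1.11 (1.08 to 1.15) for ATF6, 1.25 (1.20 to 1.31) for ERAD and 0.864 (0.836 to 0.892) for the members outside. Single genes weigh heavily in such sums, so they do not describe each gene of an arm. HSPA5 held 3012 and 2694 of the 12010 and 8187 ATF6 counts. HERPUD1 held 227 and 700 of the 5108 and 3913 ERAD counts. With genes known to answer to both factors counted in each arm, the medians were 0.54 for IRE1-XBP1 and 0.25 for ATF6. The arms hold few genes each, and the difference between them was not tested. Genes of the other lists below were placed in no arm. Among those lists, 20 further targeting, translocation and signal cleavage genes had a median of -0.23. The order of the arms therefore holds for this placement only.

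**Figure D2:**
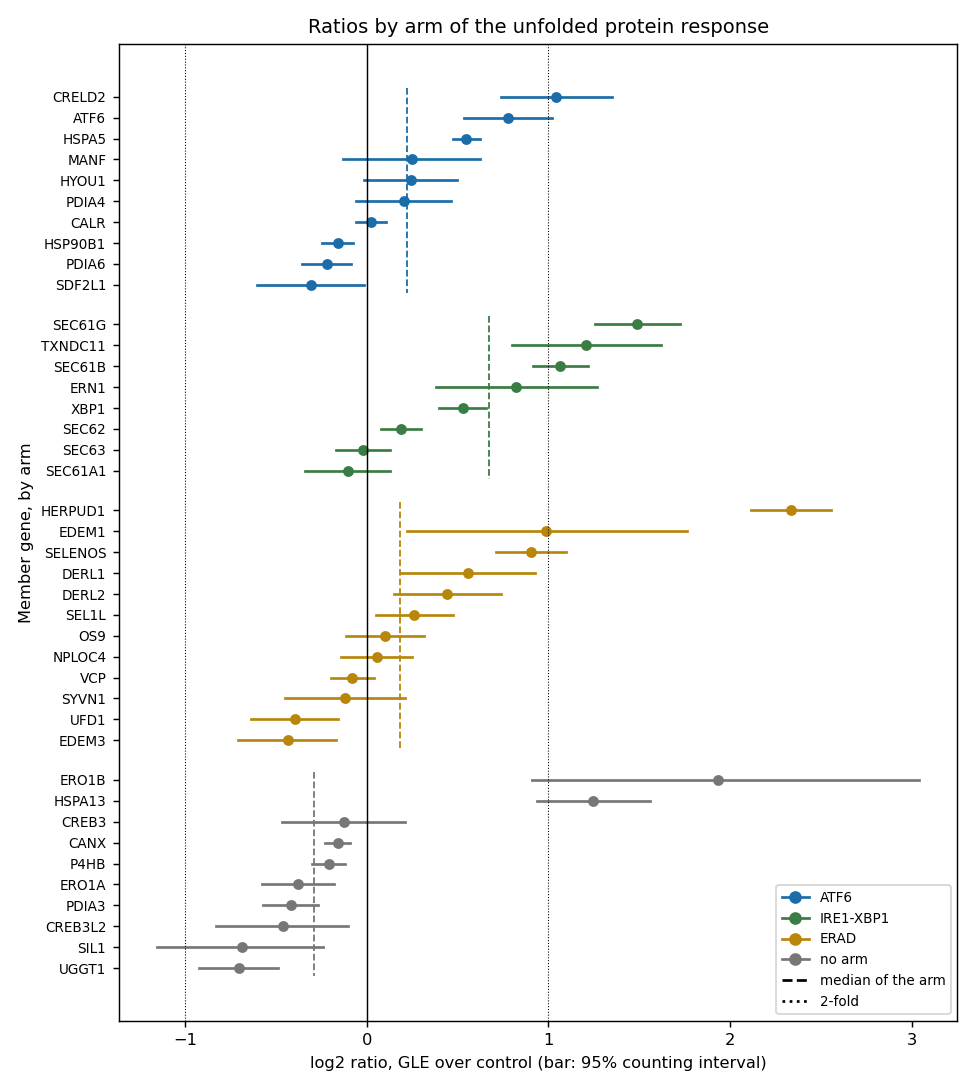
Log2 ratio of GLE over control for each member with at least 30 counts, with its 95% counting interval as a bar, by arm, with a dashed line at the median of each arm and dotted lines at 2-fold. The IRE1-XBP1 median (0.68) lies to the right of those of ATF6 (0.22) and ERAD (0.18), and most members outside the arms lie left of 0.

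An ERSE or ERSE-II in the promoter went with ratios on both sides of 1. All 10 members with such a match had enough counts, and 7 of them had a ratio above 1. Among the 7 were CALR and HYOU1, whose intervals included 1. The median log2 ratio of the 10 was 0.39, and that of the measured members with a promoter but no match was 0.10. Within the ATF6 arm, the 6 genes with a match had a median of 0.13 and those without one 0.23. CANX, HSP90B1 and SDF2L1 had a match and an interval below 1, and the ratio of SDF2L1 was 0.986 with the GC trend removed.

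**Figure D3:**
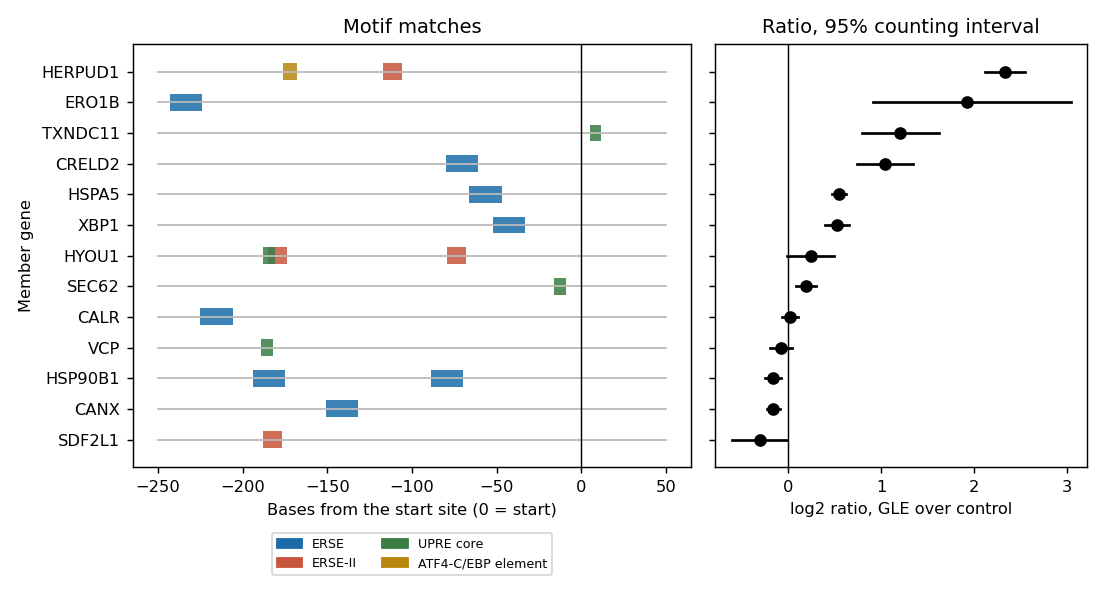
Left, positions of motif matches in the 300 bases around the start site (bases from the start) of the 13 members with any match. Right, the log2 ratio of the same genes with its 95% counting interval, ordered from HERPUD1 at the top to SDF2L1 at the bottom, with matches of the ERSE type at both ends of the order.

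Other genes of the ER pathway were taken as 9 lists. The lists were chosen with earlier results of these data known, so their shares only describe them. In the list of the PERK arm and ATF4 outputs, 2-fold or greater excess in the GLE library was found for 7 of 10 genes (70%). A 2-fold deficit was found for 0, around a median log2 ratio of 1.26. Over all genes these shares were 9.54% and 10.5%. The interval was above 1 for 8 of its genes and below 1 for NUPR1, at 0.791 (0.722 to 0.866), and CEBPB, at 0.799 (0.656 to 0.970), which were named after their values were seen. Its leading genes were DDIT3, the stress factor CHOP, with 103 and 578 counts, CHAC1 with 321 and 1124, and PPP1R15A with 271 and 934. ER DNAJ co-chaperones had 1 of 7 (14.3%) at least 2-fold higher, beside 9.54% of all genes. That gene, DNAJB9, a BiP co-chaperone known as an XBP1 target, had 58 and 298 counts. DNAJC3 had a ratio of 1.90 (1.65 to 2.19) and DNAJC1 of 1.79 (1.51 to 2.12). Among 33 other ERAD genes, 3 (9.09%) were at least 2-fold higher and 2 (6.06%) lower, beside 9.54% and 10.5% of all genes. Their intervals were above 1 for 10 and below 1 for 12. HERPUD2, the paralog of HERPUD1, had 199 and 278 counts, a ratio of 2.28 (1.90 to 2.75). The ligase gene RNF139 was at 2.27 (1.82 to 2.83), and UBL4A, of the complex that handles tail-anchored proteins, was 2.92-fold lower (2.0 to 4.35).

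Genes that act beside the translocon lay on both sides of 1. Of 20 targeting, translocation and signal cleavage genes, 0 were at least 2-fold higher and 2 (10%) were lower, beside 9.54% and 10.5% of all genes. Their intervals were above 1 for 3 (15%) and below 1 for 9 (45%), beside 27.7% and 30.1%. SPCS3, a signal peptidase subunit, had 706 and 169 counts and was 2.56-fold lower (2.16 to 3.04). TRAM2 was 2.45-fold lower (1.63 to 3.78), and SRP54, of the signal recognition particle, had a ratio of 1.92 (1.65 to 2.24). Of 20 N-glycan transfer and trimming genes, 0 were at least 2-fold higher and 1 (5%) was lower, beside 9.54% and 10.5% of all genes. They had the same interval shares as that list, with 3 above 1 (15%) and 9 below (45%). The 3 above 1, named after their values were seen, were DAD1 at 1.46 (1.28 to 1.68), OST4 at 1.30 (1.16 to 1.45) and OSTC at 1.21 (1.07 to 1.37). MAN1B1 was 2.19-fold (1.52 to 3.23), STT3B 1.70-fold (1.40 to 2.07) and GANAB 1.67-fold (1.39 to 2.03) lower.

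The remaining lists held fewer genes. Other ER oxidoreductases had 2 of 16 at least 2-fold higher (12.5%) and 1 lower (6.25%), beside 9.54% and 10.5% of all genes. AGR2 was at 2.41 (1.82 to 3.21), TXNDC16 at 2.42 (1.65 to 3.56) and GPX7 5.16-fold lower (2.35 to 13.4). Other sensors and their processing genes held 1 of 13 genes beyond 2-fold (7.69%), on the higher side, around a median of 0.44. QRICH1 was at 2.28 (1.55 to 3.38), WFS1 at 1.83 (1.41 to 2.38) and YY1 at 1.35 (1.25 to 1.47). ER prolyl isomerases and ER-phagy receptors had 0 members beyond 2-fold, with medians of -0.25 over 6 genes and -0.35 over 7. FKBP14 was 1.82-fold (1.52 to 2.19), FKBP9 1.72-fold (1.24 to 2.41), RTN3 1.28-fold (1.15 to 1.41) and CCPG1 1.38-fold (1.08 to 1.77) lower, while PPIB had a ratio of 1.28 (1.08 to 1.53) and RETREG3 of 1.47 (1.05 to 2.05).

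**Figure D4:**
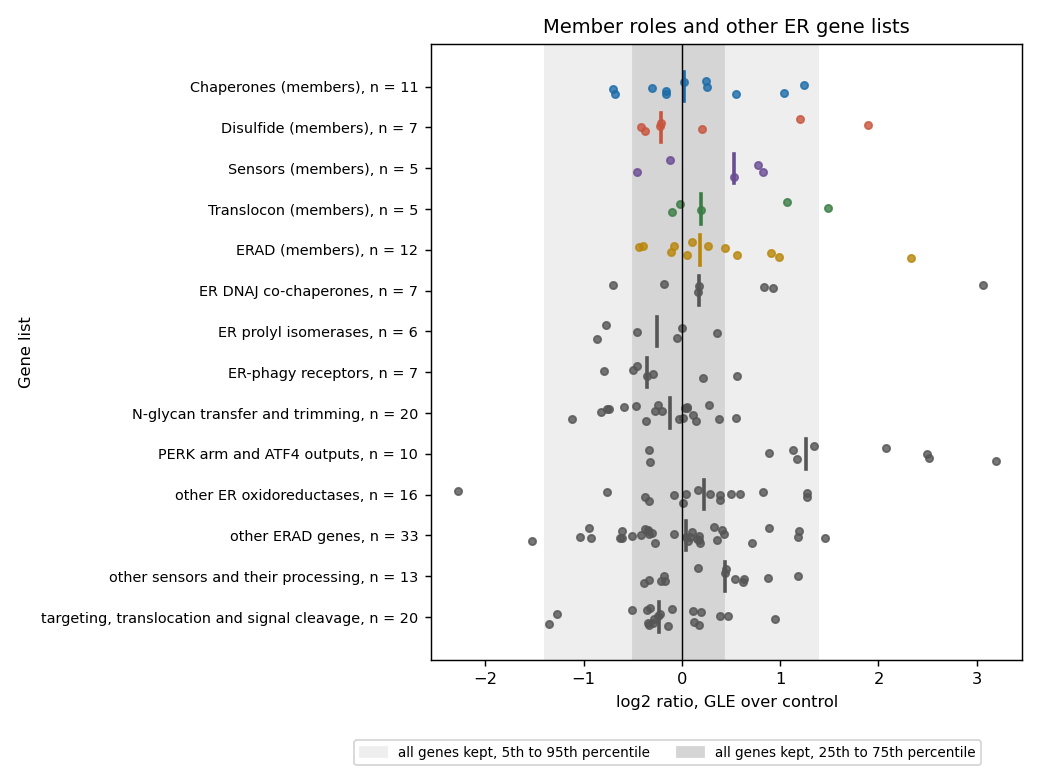
Log2 ratio of GLE over control for each measured gene (points) and the median (vertical bars) of the members by role (colours) and of 9 other ER gene lists (grey), with shaded bands for the middle of all genes. The list of the PERK arm and ATF4 outputs has the median farthest to the right (1.26), and ER-phagy receptors have the one farthest to the left (-0.35).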

How the data were processed

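The authors deposited 1 table of raw, unscaled counts by symbol for each library. Per the submitters' processing notes, fastp, STAR, HTSeq and GRCh38 were used. The annotation and the strand setting are not stated in the labels, so reads of overlapping genes may be lost or misassigned. Counts were scaled by effective library sizes (TMM, edgeR 4.0.16, R 4.3.3), with factors of 1.03 for the control and 0.972 for GLE. Ratios carry exact Clopper-Pearson 95% intervals of the GLE share of a gene's counts, computed with SciPy 1.17.1 in Python 3.11.15. Intervals and the floor of 3 counts cover counting error only. Reads that carry no molecular identifier can be copies of 1 molecule, so the intervals may be too narrow even for that error. Log2 ratios had 0.5 added to each count. The computation was tested on simulated data. All members were named whatever their values, and up to 3 genes of each other list by the interval bound nearest to 1. Transcript length, GC content and exons came from GENCODE release 29, and gene positions and promoters from RefSeq (GRCh38.p14). The planned protein features were not used here. Members and lists were chosen with earlier results of these data known.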

Additional observations from a re-analysis of the deposited data

How the results depend on the processing

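With 1 library per group, variation between cultures cannot be separated from the extract. No paired analysis was possible because each group has 1 library. Of the 40 members with a ratio, those with an interval on one side of 1 kept their ratio on that side under each scaling (total counts, DESeq2 1.42.0, upper quartile, median centring, without the 20 most abundant and mitochondrial genes), thinning and GC trend removal, the last added after seeing the data. Scaled by total counts, 5 members were at least 2-fold higher, without CRELD2 and SEC61B, and under DESeq2 size factors or median centring 8 were, with EDEM1. The whole interval lay beyond 2-fold for 2 members, HERPUD1 and SEC61G. A fold of 1.5 gave 11 higher and 2 lower members, and no minimum beyond 1 count gave 1 lower, TXNDC5. UGGT1 and SIL1, the 2 lower at 1.5-fold, lay just inside that fold after thinning. The IRE1-XBP1 median was the highest of the 3 arms under each scaling, count minimum, added count, thinning and GC setting, from 0.59 to 0.73, against 0.14 to 0.31 for ATF6 and 0.10 to 0.21 for ERAD. Counting genes of both arms in each gave 0.54 for IRE1-XBP1 and 0.25 for ATF6. No other placement of genes in arms was tried.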
